A study of Mus musculus with 12 samples.

Results

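Genes used for cell sorting, and the Ly6 surface protein genes beside one of them, were followed across sorted osteoblasts and endothelial cells of mouse long bones. They were Pecam1, Itgav and Ptprc, whose products CD31, CD51 and CD45 defined the sort gates, Ly6a, whose product is Sca1, and the related genes Ly6c1, Ly6c2 and Ly6e. A probe set was a member if 1 of these 7 symbols stood as a whole symbol in its annotation. This gave 6 of 34760 probe sets, and all 6 passed the filter on dim signals. Pecam1, Itgav, Ptprc and Ly6e had 1 probe set each, and 2 probe sets named both Ly6c1 and Ly6c2. No probe set named Ly6a, so Sca1, which separated the gates, is not analysed here at the RNA level. A further 2 probe sets held a member's letters within another symbol, Ly6a2 and Ptprcap, and were kept apart.

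The 12 Affymetrix arrays came from female C57BL/6 mice in 4 groups of 3 biological replicates. The tumor-bearing mice had received 500000 EO771 cells, a mouse mammary cancer line, by the intracardiac route, and the cells grew in bone for about 2 weeks. The tumor-free mice are the controls, and the labels give no other treatment and no age. Osteoblasts were gated as CD51+ cells negative for CD31, SCA1, CD45, TR119 and GFP, and endothelial cells as SCA1+CD31+ cells negative for CD45, TR119 and GFP. RNA came from 5000 cells a sample. It is not said how many mice contributed to an array, or whether both cell types came from the same mice, so p-values measure the spread between these arrays.

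CD31 is an adhesion molecule of endothelial cell contacts that is also carried by platelets and some leukocytes. CD51 is the integrin alpha v chain, which pairs with several beta chains to bind vitronectin, fibronectin and other matrix proteins. CD45 is a tyrosine phosphatase on nearly all blood cells except mature red cells. Sca1, Ly6C and Ly6E are small proteins with a lipid anchor (GPI) in the outer membrane, encoded side by side on chromosome 15. Sca1 marks blood stem cells, arterial and other endothelium and some stromal progenitors, Ly6C marks monocytes, other leukocytes and endothelium, and genes of this family respond to interferons.

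Before the members are described, the arrays were checked against other genes of their cell types. Values are deposited log2 values, with array medians between 5.95 and 6.04. The endothelial junction gene Cdh5 lay between 11.39 and 11.91 in the 6 endothelial arrays and between 5.54 and 6.23 in the 6 osteoblast arrays, and the VEGF receptor gene Kdr between 10.01 and 10.43 and between 4.66 and 5.08. The bone gene Alpl lay between 9.77 and 10.67 in osteoblasts and between 5.81 and 6.47 in endothelial cells, and the bone transcription factor gene Sp7 between 7.73 and 8.75 and between 5.51 and 6.18. These genes, which no antibody of the gates targets, separated the arrays as labelled. Genes of other cell types were present as well. Of 9 tested cartilage genes limma called 7 higher in osteoblasts than in endothelial cells in tumor-free and 9 in tumor-bearing mice, where 5.02% and 4.47% of all probe sets were, and Cnmd, which encodes chondromodulin, lay between 8.91 and 11.30 in the osteoblast arrays. The median over 10 measured cartilage genes differed between replicates. It was 8.37, 10.39 and 8.32 in tumor-free and 10.00, 10.24 and 8.16 in tumor-bearing osteoblasts. In endothelial cells 10 of 12 tested marrow stroma genes had a positive tumor difference, with a median of 0.52 against 0.0029 over all probe sets, and limma called 0. Not all of this list is foreign to endothelium, since it shares Eng with the endothelial list. In tumor-free mice 3 of the 12 were called lower and 8 higher in osteoblasts, where 6.82% and 5.02% of all probe sets were. Of the stroma genes, the leptin receptor gene Lepr was 8.03, 7.28 and 7.43 in tumor-free and 10.20, 9.34 and 8.82 in tumor-bearing endothelial arrays (limma difference 1.87, adjusted p = 0.176). The osteoblast list as a whole showed little tumor difference in endothelial cells. Of its 9 tested genes 7 were positive and 2 negative, with a median of 0.061, and limma called 0. Within it the bone matrix gene Ibsp was 7.83, 8.26 and 7.90 against 10.25, 8.87 and 8.76 (limma difference 1.29, adjusted p = 0.611). The groups did not overlap in Lepr or in Ibsp, where 10.6% of all probe sets did not. The part of such cells in the members' values was not tested. Replicate 3 of the tumor-free osteoblasts stood apart in blood genes, with a median of 8.44 over 13 neutrophil genes against at most 6.41 in the other 11 arrays. Of 5 tested red cell genes 2 were higher in osteoblasts in tumor-free mice, where 5.02% of all probe sets were. They were Slc4a1 by 1.17 (limma adjusted p = 0.0391) and Ermap by 0.50 (0.0472). Of 6 tested B cell genes 2 were also higher there. In tumor-bearing mice 0 genes of either list were called.

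Pecam1 followed the CD31 gate (probe set 10392221). Its log2 values were 10.83, 10.78 and 10.73 in tumor-free endothelial cells and 10.68, 10.99 and 10.80 in tumor-bearing ones. In osteoblasts they were 5.94, 5.70 and 6.49 in tumor-free and 6.17, 6.90 and 6.68 in tumor-bearing mice. Every endothelial array lay above every osteoblast array. The osteoblast mean was lower by a log2 difference of -4.74 ± 0.22 (limma estimate ± SE, n = 3 per group, adjusted p = 2.96e-07) in tumor-free mice, a 26.7-fold difference, and of -4.24 ± 0.22 (adjusted p = 8.64e-07) in tumor-bearing mice. Since cells were chosen by CD31 protein, this describes the gate and is not an independent finding. In sorted populations fewer cells of a type and less RNA per cell cannot be told apart. All 12 Pecam1 values exceeded the 40th percentile of their array (5.51 to 5.61), the osteoblast values included.

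**Figure D1:**
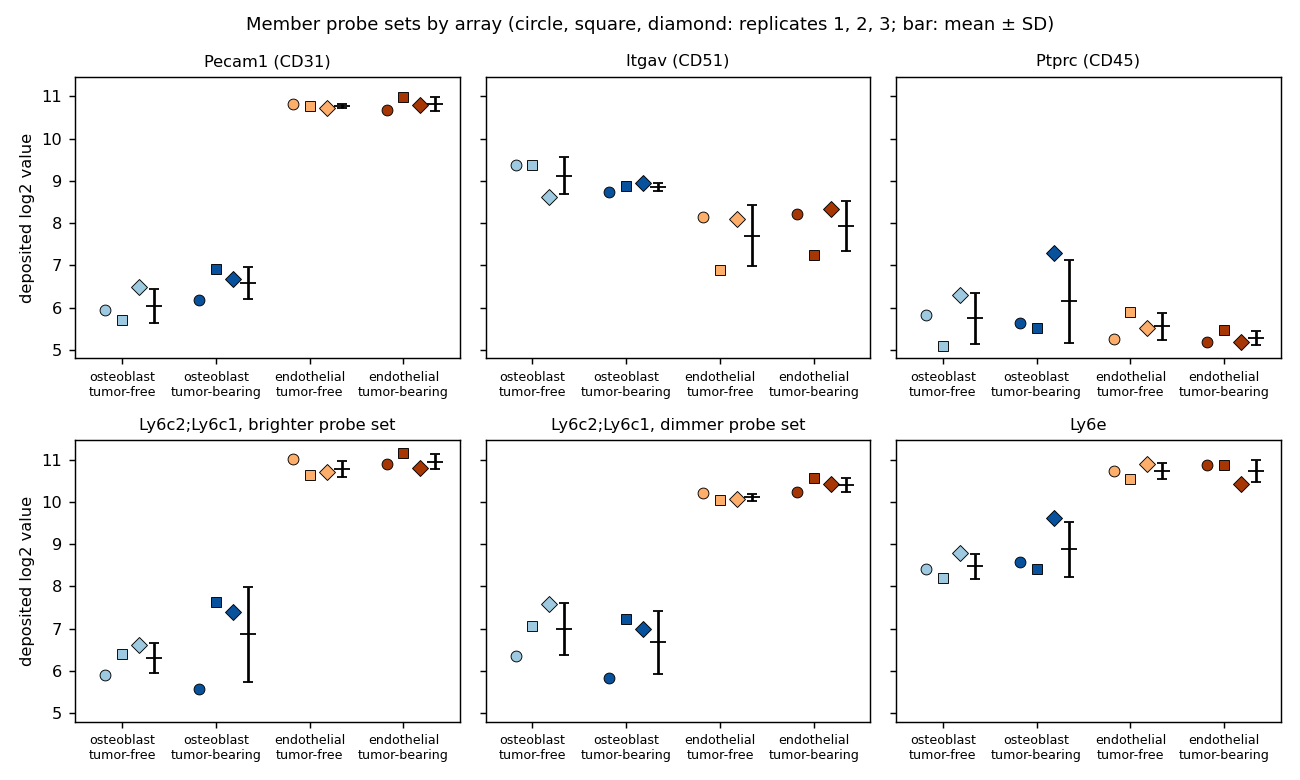
Deposited log2 values (y axis) of the 6 member probe sets in the 4 groups (x axis), with a circle, a square and a diamond for replicates 1, 2 and 3 and a bar for the mean ± SD of 3 arrays. Pecam1, both Ly6c1/Ly6c2 probe sets and Ly6e lie higher in all 6 endothelial arrays than in any osteoblast array. The Ptprc values of the cell types overlap in tumor-free mice and do not overlap in tumor-bearing mice.

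Itgav differed in the direction of the CD51 gate by a smaller amount (probe set 10473281). Osteoblast values were 9.37, 9.38 and 8.61 in tumor-free and 8.75, 8.87 and 8.94 in tumor-bearing mice, and endothelial values were 8.14, 6.88 and 8.09 and 8.22, 7.24 and 8.33. The lowest osteoblast array still exceeded the highest endothelial one, and replicate 2 was the lowest of both endothelial groups. In tumor-free mice Itgav was higher in osteoblasts by 1.41 ± 0.38 (limma, n = 3 per group, adjusted p = 0.0371), a 2.67-fold difference, and in tumor-bearing mice the difference of 0.93 ± 0.38 did not pass (adjusted p = 0.180). Osteoblasts were chosen by CD51 protein, and the endothelial gate did not use it. The comparison therefore describes the gate and is not an independent finding. Leaving out either of tumor-free osteoblast arrays 1 and 2 ended the tumor-free call (limma adjusted p = 0.111 and 0.108), as did a fit without endothelial tumor-free replicate 2 (0.112) and, through the shared spread, without osteoblast tumor-bearing replicates 1 or 2 (0.0533 and 0.0529). It was also lost with array weights (0.0597) and in a fit of the 6 arrays compared (0.0895).

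Partners and ligands of the alpha v chain were read beside it from a list of 9 genes, 6 of them tested. In tumor-free mice 3 were higher in osteoblasts and 0 lower, with a median log2 difference of 0.72 against -0.01 over all probe sets tested, where 5.02% of probe sets were called higher. Of the beta chains, Itgb5 lay at 8.21, 8.30 and 8.18 in tumor-free osteoblasts and at 6.56, 6.20 and 6.46 in tumor-free endothelial cells, a log2 difference of 1.82 (limma adjusted p = 2.3e-05). Itgb8 was higher by 0.74 (adjusted p = 0.0164), while Itgb3, the partner in the vitronectin receptor, differed by 0.70 and did not pass (0.079). Itgb8 exceeded the 40th percentile in 6 arrays, all of osteoblasts, so it was tested only through the cell type in which it was higher. Itgb1, which pairs with many alpha chains, differed by 0.01. Fn1, which encodes the ligand fibronectin, was higher in osteoblasts by 4.94. The same 3 genes were higher in tumor-bearing mice, where 4.47% of probe sets were called higher, with differences of 1.95 for Itgb5, 0.81 for Itgb8 and 4.76 for Fn1.

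Ptprc, the gene of the antigen excluded from both gates, was dim in most arrays (probe set 10358224). It exceeded the 40th percentile of the array in 5 of 12 arrays. Endothelial values were 5.26, 5.89 and 5.53 in tumor-free and 5.18, 5.48 and 5.19 in tumor-bearing mice. Osteoblast values were 5.83, 5.10 and 6.31 in tumor-free and 5.63, 5.52 and 7.28 in tumor-bearing mice. Replicate 3 was the highest of each osteoblast group, and the tumor-bearing replicate 3 was the highest of all 12 arrays. That value exceeded the upper quartile of its array (7.17), and the tumor-free replicate 3 exceeded its array's median (6.02). Osteoblasts and endothelial cells differed by 0.18 (95% interval -0.80 to 1.17, limma adjusted p = 0.867) in tumor-free mice and by 0.86 (-0.12 to 1.85, adjusted p = 0.293) in tumor-bearing mice, where the groups did not overlap. Without replicate 3 of both osteoblast groups, left out after the data were seen, these differences were -0.10 and 0.30.

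Other blood cell genes were set beside Ptprc. The lysosomal membrane gene Laptm5, which blood cells express, was the gene closest to Ptprc in pattern, with a mean absolute difference of 0.19 over the 12 arrays once each gene was centred on its mean. Laptm5 also had its highest value, 7.16, in replicate 3 of the tumor-bearing osteoblasts and lay between 5.51 and 6.37 in the others. Il1rap and Fignl1 were next, at 0.19 each, with 7.66 and 7.15 in that array. These 3 were picked for their likeness among single-symbol genes whose range was at least 0.7 times that of the member, so the agreement is a description.

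The blood cell list as a whole did not have 1 order across the arrays. Over 17 measured genes of CD45-positive cells the array medians were 5.95, 5.97 and 6.88 in tumor-free osteoblasts, 6.16, 6.29 and 6.33 in tumor-bearing osteoblasts, and between 5.67 and 6.02 in the 6 endothelial arrays. The log2 of the summed level of these genes ranged from 11.00 to 12.23 and from 11.12 to 11.86 in tumor-free and tumor-bearing osteoblasts, and from 11.17 to 11.55 and from 11.34 to 11.52 in tumor-free and tumor-bearing endothelial cells, so that all 4 ranges overlapped. Bright genes weigh most in such a sum. Arhgdib lay between 9.33 and 10.89 in all 12 arrays, and Lcp1 between 8.32 and 9.28 in endothelial and 5.45 and 8.67 in osteoblast arrays. The overlap therefore does not show a like content of blood cells. The median of the neutrophil genes was highest in the tumor-free osteoblast replicate 3 (8.44) and lowest in the tumor-bearing replicate 3 (5.48), the array with the most Ptprc signal. By the log2 of their summed level the tumor-free osteoblast replicate 3 was again highest (13.81), but endothelial tumor-free replicate 1 was lowest (10.49), below the tumor-bearing osteoblast replicate 3 (10.70). Over 9 monocyte and macrophage genes the median was between 5.64 and 6.96 in osteoblast arrays and between 4.90 and 5.67 in endothelial arrays. Tyrobp, an adaptor of myeloid receptors, was higher in osteoblasts by 2.06 (limma adjusted p = 0.00679) in tumor-free and 1.87 (0.0135) in tumor-bearing mice, 1 of 14 tested genes of the blood cell list that were higher in each, where 5.02% and 4.47% of all probe sets were. Fcer1g, another adaptor of myeloid receptors, went the other way. It lay at 6.34, 6.49 and 7.32 in tumor-bearing osteoblasts and at 8.23, 8.13 and 7.76 in tumor-bearing endothelial cells, a difference of -1.32 (limma adjusted p = 0.0208), and its difference of -0.37 in tumor-free mice did not pass (0.553). Of 7 tested monocyte genes 2 and 3 were higher, where 5.02% and 4.47% of all probe sets were. Among them were the transglutaminase gene F13a1, by 3.96 and 3.49 (limma adjusted p = 1.55e-05 and 4.44e-05), and the lysozyme gene Lyz2, by 2.73 and 2.14 (0.00728 and 0.0302). The other in tumor-bearing mice was Ms4a6c, by 2.59 (0.0118). Ms4a6c exceeded the 40th percentile in 4 arrays, all of osteoblasts, so it was tested only through the cell type in which it was higher. F13a1 lay between 8.11 and 9.55 in the 6 osteoblast arrays and between 4.90 and 5.81 in the endothelial ones. Ptprcap, which encodes a CD45-associated protein, lay between 6.91 and 7.30 in all 12 arrays and showed no such spread. The part of other cells in the Ptprc values was not tested.

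**Figure D2:**
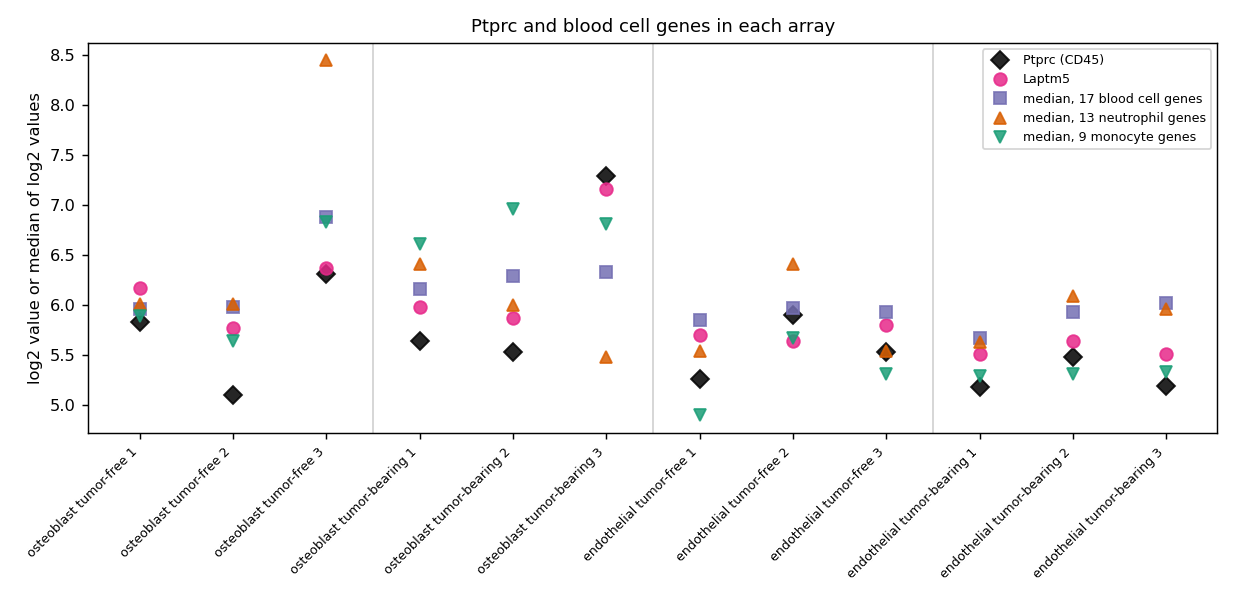
Log2 values of Ptprc and Laptm5 and the array medians of 3 blood cell gene lists (y axis) in each of the 12 arrays (x axis), grouped by cell type and tumor status. Ptprc and Laptm5 are highest in replicate 3 of the tumor-bearing osteoblasts (7.28 and 7.16), whereas the median of the neutrophil genes is highest in replicate 3 of the tumor-free osteoblasts (8.44).

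The Ly6C genes were not targets of any antibody in the gates, and they gave some of the widest differences among the members. The gates did separate the cells by Sca1, whose gene Ly6a lies next to Ly6c1 and has no probe set here. Whether that choice bears on the Ly6C values was not tested. Both probe sets name Ly6c1 together with Ly6c2, so the genes cannot be separated here. In the first (probe set 10429568) endothelial values were 11.00, 10.64 and 10.71 in tumor-free and 10.90, 11.15 and 10.81 in tumor-bearing mice. Osteoblast values were 5.91, 6.40 and 6.61 and 5.57, 7.64 and 7.39. In the second (probe set 10429573) endothelial values were 10.20, 10.06 and 10.08 and 10.23, 10.56 and 10.42, and osteoblast values were 6.36, 7.06 and 7.59 and 5.83, 7.22 and 6.99. In both probe sets every endothelial array lay above every osteoblast array, and the tumor-bearing osteoblast replicate 1 was the lowest of all 12 arrays.

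In tumor-free mice the osteoblast mean was lower by -4.48 ± 0.44 in the first probe set (limma, n = 3 per group, adjusted p = 9.51e-05) and by -3.11 ± 0.36 in the second (adjusted p = 0.000295), differences of 22.3-fold and 8.63-fold. In tumor-bearing mice the differences were -4.09 ± 0.44 (adjusted p = 0.0002) and -3.72 ± 0.36 (9.13e-05). Without tumor-bearing osteoblast replicate 1 the latter were -3.44 and -3.30, and both still passed. The genes whose pattern over the 12 arrays was closest to the first probe set were the apelin receptor gene Aplnr (mean absolute difference 0.34), Gimap6 (0.35) and the endothelial matrix gene Mmrn2 (0.37). For the second they were the receptor gene Gpr182 (0.29), the phosphodiesterase gene Pde2a (0.36) and Entpd1 (0.36), which encodes the ectonucleotidase CD39. Pecam1 was closest to Mmrn2 (0.24), the potassium channel gene Kcnj8 (0.26) and Aplnr (0.26).

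The start regions of Ly6c1 and Ly6c2 are shown because both probe sets name the pair, together with that of Ly6g, a neighbour in the cluster whose product marks neutrophils and whose probe set stayed dim. RefSeq's table (build GRCm38.p6) holds 2 promoter windows each for Ly6c1, Ly6c2 and Ptprc and 1 for Itgav, each of 300 bases around an annotated start. Of each pair of genes the windows with the most identical bases were taken. Capitals mark the runs of at least 12 bases that all 3 share, 28 bases in each, written 5′ to 3′ on the gene's strand. Ly6c1 is at chr15:75048788-75049087 (minus strand), Ly6c2 at chr15:75111922-75112221 (minus strand) and Ly6g at chr15:75155079-75155378 (plus strand).
Ly6c1: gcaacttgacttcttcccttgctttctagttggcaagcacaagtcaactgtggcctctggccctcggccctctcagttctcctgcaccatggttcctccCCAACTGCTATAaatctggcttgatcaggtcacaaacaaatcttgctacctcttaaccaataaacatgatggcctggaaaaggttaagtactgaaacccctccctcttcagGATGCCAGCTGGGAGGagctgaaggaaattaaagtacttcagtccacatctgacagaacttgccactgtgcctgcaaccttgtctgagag
Ly6c2: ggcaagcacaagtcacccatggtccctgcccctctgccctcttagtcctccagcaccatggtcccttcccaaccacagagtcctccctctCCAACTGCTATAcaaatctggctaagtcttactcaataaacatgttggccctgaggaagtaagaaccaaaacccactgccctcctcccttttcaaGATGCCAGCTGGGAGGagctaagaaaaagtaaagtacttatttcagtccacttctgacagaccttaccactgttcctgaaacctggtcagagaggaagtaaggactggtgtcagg
Ly6g: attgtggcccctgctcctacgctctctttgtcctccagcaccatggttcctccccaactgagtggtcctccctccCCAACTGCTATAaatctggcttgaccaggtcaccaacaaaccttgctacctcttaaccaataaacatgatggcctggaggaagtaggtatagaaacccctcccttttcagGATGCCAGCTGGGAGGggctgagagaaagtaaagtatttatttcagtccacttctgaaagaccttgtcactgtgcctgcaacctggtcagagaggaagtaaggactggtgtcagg
In a pairwise alignment with free ends, Ly6c1 and Ly6c2 had 214 identical bases in 288 aligned columns (74.3%), and Ly6c1 and Ly6g had 222 in 281 (79.0%). The unrelated Itgav window gave 51 in 88 (58.0%). The 2 motifs were searched on both strands in the 3 windows shown. The STAT element TTCNNNGAA had 0 matches in each, with a match in 8.3% of the 32851 promoters of the table, and the ETS core GGAAGT had 0, 2 and 2 matches in Ly6c1, Ly6c2 and Ly6g, with a match in 23.8% of promoters. In the windows not shown the ETS core had 1 match in Ly6c1, 2 in Ly6c2 and 1 in Ly6g. The 2 motifs can share the letters GAA where they meet, and a match or its absence says nothing about binding.

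Ly6e differed between the cell types in the same direction from a brighter osteoblast level (probe set 10424676). Endothelial values were 10.74, 10.55 and 10.91 in tumor-free and 10.88, 10.87 and 10.42 in tumor-bearing mice. Osteoblast values were 8.42, 8.21 and 8.80 and 8.58, 8.42 and 9.63, all below the lowest endothelial array. The tumor-bearing osteoblast replicate 3 stood above the other 5 osteoblast arrays. The osteoblast mean was lower by -2.26 ± 0.30 (limma, n = 3 per group, adjusted p = 0.000602) in tumor-free mice, a 4.79-fold difference, and by -1.85 ± 0.30 (adjusted p = 0.00266) in tumor-bearing mice. Its closest patterns were those of the uridine phosphorylase gene Upp1 (0.21), Exoc6 (0.22) and the cytokine receptor gene Csf2rb (0.22).

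In the tumor-free mice limma called 5 of the 6 member probe sets between osteoblasts and endothelium, 4 lower and 1 higher in osteoblasts, where 11.8% of the 16271 probe sets tested were called (6.82% lower and 5.02% higher). In tumor-bearing mice it called 4, all lower, where 9.77% of probe sets were called and 5.30% were lower. The arrays of the cell types did not overlap in 5 members of the tumor-free and 6 of the tumor-bearing mice, where 29.2% and 27.6% of all probe sets did not. Pecam1 and Itgav encode antigens by which the cells were sorted, so their part in these counts describes the gates. Both Ly6c1/Ly6c2 probe sets name the same genes and are not independent of each other. The counts are therefore a description and not a test against the shares of all probe sets. The order of the 4 groups was the same for Pecam1 and for the first Ly6c1/Ly6c2 probe set, with tumor-free osteoblasts lowest, then tumor-bearing osteoblasts, tumor-free and tumor-bearing endothelial cells. In Itgav tumor-free osteoblasts were highest (9.12 ± 0.44, mean ± SD, n = 3), followed by tumor-bearing osteoblasts (8.85 ± 0.098), tumor-bearing (7.93 ± 0.60) and tumor-free endothelial cells (7.70 ± 0.71). Ly6e was lowest in tumor-free osteoblasts (8.47 ± 0.30), then tumor-bearing osteoblasts (8.88 ± 0.66), with both endothelial groups near each other (10.72 ± 0.26 and 10.73 ± 0.18). The second Ly6c1/Ly6c2 probe set was lowest in tumor-bearing osteoblasts (6.68 ± 0.75), and Ptprc was lowest in tumor-bearing endothelial cells (5.28 ± 0.17) and highest in tumor-bearing osteoblasts (6.15 ± 0.99). Within these orders the neighbours of 1 cell type overlapped in their arrays, apart from the second Ly6c1/Ly6c2 probe set in endothelial cells.

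**Figure D3:**
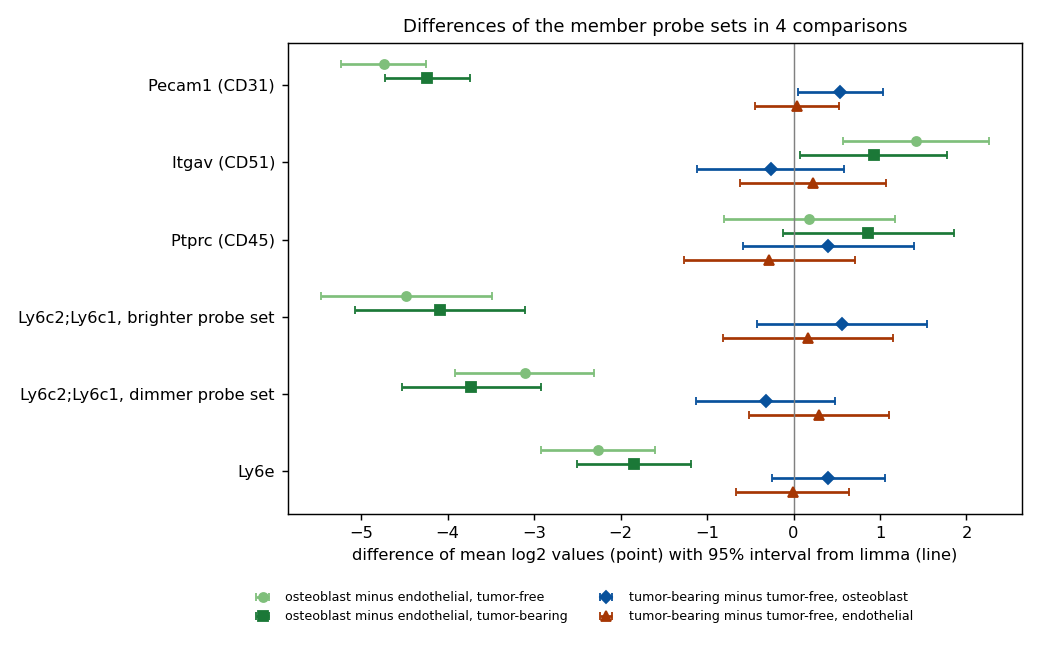
Differences of mean log2 values (points, x axis) with 95% intervals from limma (lines) for the 6 member probe sets (y axis) in 4 comparisons. The intervals of the cell type comparisons lie below 0 for Pecam1, Ly6c1/Ly6c2 and Ly6e and above 0 for Itgav, and those of the tumor comparisons cross 0 except for Pecam1 in osteoblasts (0.051 to 1.03), which did not pass after adjustment.

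Along chromosome 15 some measured genes of the cluster were higher in endothelial cells, while others were dim or did not pass the test. RefSeq lists 23 protein-coding genes from Ly6d to Gpihbp1, of which 18 had a probe set and 10 a tested one. Ly6a, next to Ly6c1, is among the 5 with none. In tumor-free mice 4 of these 10 genes were named by a probe set called between osteoblasts and endothelium, Ly6e, Ly6c1, Ly6c2 and Gpihbp1, all lower in osteoblasts, where 6.82% of all probe sets were called lower. Gpihbp1, which encodes the protein that carries lipoprotein lipase to the capillary lumen, lay at 9.65, 9.74 and 9.52 in tumor-free endothelial cells and at 5.88, 6.12 and 6.20 in tumor-free osteoblasts. Its log2 difference was -3.57 ± 0.16 (limma adjusted p = 2.54e-07). Ly6i, between Ly6e and Ly6c1 in gene order, and Ly6g did not reach the 40th percentile in any array, with group means between 4.04 and 4.36 and between 3.98 and 4.28. Ly6d, Ly6k and Ly6h exceeded it in all 12 arrays and had log2 differences of -0.027, -0.060 and 0.058 in tumor-free mice, which did not pass. In tumor-bearing mice Ly6f was also lower in osteoblasts, by -0.61 (limma adjusted p = 0.0081), with means of 4.98 and 5.59 at the edge of the filter. It exceeded the 40th percentile in 3 of 12 arrays, all endothelial. The gene was therefore tested only through the cell type in which it was brighter.

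**Figure D4:**
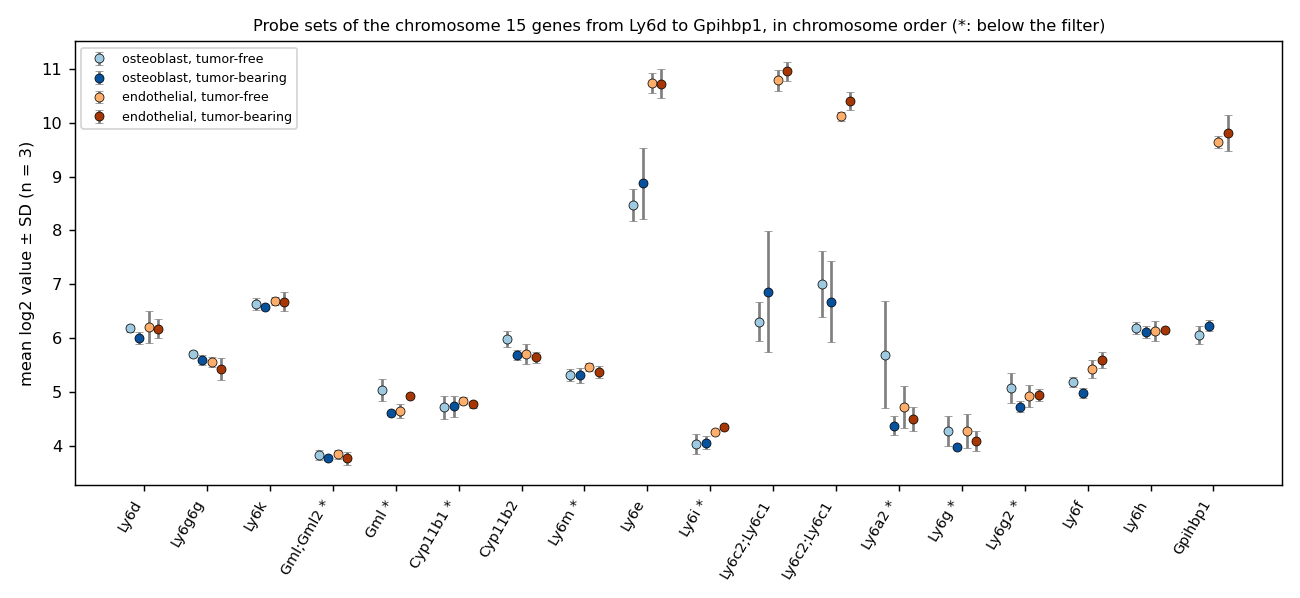
Mean log2 value ± SD of 3 arrays per group (y axis) for the probe sets of the chromosome 15 genes from Ly6d to Gpihbp1 in chromosome order (x axis), with an asterisk where a probe set did not pass the filter. Ly6e, both Ly6c1/Ly6c2 probe sets and Gpihbp1 separate the cell types, while Ly6i and Ly6g between or beside them stay near 4.

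The wider Ly6 family was read from a list of 29 further genes, 27 measured and 17 tested. In tumor-free mice 2 of the 17 were lower in osteoblasts and 0 higher, where 6.82% of all probe sets were called lower, and the median log2 difference was -0.02 against -0.01 over all probe sets. Besides Gpihbp1 this was Plaur, the urokinase receptor gene, with -0.88 (limma adjusted p = 0.0345). In tumor-bearing mice Plaur had -0.42 and did not pass (0.333), while Gpihbp1 had -3.58 and passed. Ly6g6d, with -0.88 and -0.92, did not pass in either (0.0594 and 0.0568). Ly6g6d exceeded the 40th percentile in 3 of 12 arrays, all endothelial, so it was tested only through the cell type in which it was brighter.

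Tumor growth was not accompanied by a called difference in any member. In osteoblasts limma called 0 of the 6 probe sets, with 1 at an unadjusted p under 0.05, where 0.0492% of all probe sets were called. That was Pecam1, with means of 6.04 ± 0.40 and 6.59 ± 0.37 (mean ± SD, n = 3) in tumor-free and tumor-bearing mice, a difference of 0.54 (limma, unadjusted p = 0.0335, adjusted p = 0.475) and overlapping arrays. The groups overlapped in all 6 members, where 14.9% of all probe sets did not overlap. The 2 Ly6c1/Ly6c2 probe sets had opposite signs, 0.56 (95% interval -0.43 to 1.55) and -0.32 (-1.13 to 0.48). Ly6e differed by 0.40 (-0.25 to 1.06), Ptprc by 0.40 (-0.59 to 1.39) and Itgav by -0.27 (-1.11 to 0.58). Without replicate 3 of both osteoblast groups Ly6e differed by 0.19 and Ptprc by 0.11.

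In endothelial cells limma called 0 of the 6 probe sets, with 0 at an unadjusted p under 0.05, where 0.0184% of all probe sets were called. Pecam1 differed by 0.04 (95% interval -0.45 to 0.53), Ly6e by -0.0099 (-0.67 to 0.65) and Itgav by 0.22 (-0.62 to 1.07). Ptprc differed by -0.28 (-1.27 to 0.71). The Ly6c1/Ly6c2 probe sets differed by 0.17 (-0.82 to 1.16) and 0.29 (-0.51 to 1.10). In the second of these the tumor-bearing arrays all lay above the tumor-free ones, 1 of the 6 members, where 10.6% of all probe sets did not overlap. The tumor effects in the 2 cell types differed by -0.61 to 0.68 across the members, and limma called 0 of 6, with 0 at an unadjusted p under 0.05 (smallest adjusted p = 0.845), where 0.0184% of all probe sets were called.

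Since Ly6 genes respond to interferons, interferon-stimulated genes were set beside them. Of 15 measured genes 13 were tested, and in osteoblasts all 13 had a positive tumor difference with a median of 0.63 against -0.01 over all probe sets, while 0 passed by limma. Zbp1 had 0.85, Irf7 0.67, Rtp4 1.26 and Ifit3 1.95, with adjusted p between 0.255 and 0.485. The median of the list was 6.89, 6.17 and 6.61 in tumor-free and 7.20, 7.19 and 8.01 in tumor-bearing osteoblasts. The array with 8.01 was replicate 3, in which Ly6e reached 9.63. In endothelial cells the list's median difference was 0.14, with 9 of 13 positive and 0 passing. Whether this bears on the Ly6e values was not tested.

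Ly6a2, a neighbour whose symbol contains the letters of Ly6a, was a separate case (probe set 10429580). Its values were 6.58, 4.62 and 5.89 in tumor-free osteoblasts and 4.50, 4.18 and 4.45 in tumor-bearing ones. Endothelial values were 4.61, 5.16 and 4.40 in tumor-free and 4.27, 4.55 and 4.71 in tumor-bearing mice. It exceeded the 40th percentile in 2 of 12 arrays, both tumor-free osteoblasts, and was therefore not tested. The tumor-free osteoblast arrays all lay above the tumor-bearing ones.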

How the data were processed

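RNA of 12 sorted cell samples was measured on Affymetrix arrays, amplified with a NuGen Ovation Pico system per the labels' protocols. Per the submitters' processing notes the authors used the package affy, and its version, the summary method and the normalization were not given in the sources used here. Values were analysed as the authors deposited them, on a log2 scale and with array medians close together. Amplification from few cells can distort proportions, and dim values understate differences. The number of arrays limits the precision.

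A platform annotation named 22961 of 34760 probe sets, 21640 with 1 symbol and 1321 with several, and symbols were updated through Entrez numbers in RefSeq's GRCm38.p6 table. Probe sets above their array's 40th percentile in at least 3 of 12 arrays, counted without regard to group, were tested (16271). limma 3.58.1 in R 4.3.3 fitted 1 coefficient per group to all 12 arrays, with eBayes (prior degrees of freedom 2.22) and two-sided p-values adjusted by Benjamini-Hochberg over all probe sets tested, threshold 0.05. Lists used the brightest single-symbol probe set of a gene. Members and lists were chosen with earlier results of these data known. Named were all member probe sets, 3 genes closest in pattern to each, up to 4 genes per list with the smallest p, and fixed defining genes such as Cdh5, Sp7 and Gpihbp1. Those of the Ly6 cluster were taken by position. The list of endothelial genes had 20 of 20 tested members lower in tumor-free osteoblasts, and the osteoblast list 8 of 9 higher. Biopython 1.88 aligned the promoters. The steps were tested on simulated data. Alternatives were other normalizations, filters, eBayes settings, array weights, a fit of the groups compared, a replicate block, a minimum fold, and each array left out.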

Additional observations from a re-analysis of the deposited data

How the results depend on the processing

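Pecam1, Ly6e and both Ly6c1/Ly6c2 probe sets differed between the cell types in both tumor states in all alternatives that held them, and 0 members were called in the tumor contrasts or their difference under any alternative. The count of members called fell to 3 in tumor-free and 2 in tumor-bearing mice with 1 single-symbol probe set per gene, which leaves out the Ly6c1/Ly6c2 probe sets. With 1 array left out in turn the counts were 4 to 5 and 4 to 4. Itgav passed in tumor-free mice in 16 of 23 alternatives (log2 difference 1.00 to 1.67). The signs that turned belonged to differences that did not pass. These were, for Ptprc, -0.17 for the tumor difference without osteoblast tumor-bearing replicate 3 and -0.096 between cell types in tumor-free mice without osteoblast tumor-free replicate 3 or both osteoblast replicates 3, and 0.10 for the second Ly6c1/Ly6c2 probe set without osteoblast tumor-bearing replicate 1. With 1 array left out in turn these 3 differences ranged from -0.17 to 0.71, -0.096 to 0.51 and -0.64 to 0.10. In endothelial cells they were -0.045 for Pecam1 without tumor-bearing replicate 2, and for Ly6e 0.026 with median centring, 0.024 with array weights, 0.14 without tumor-bearing and 0.078 without tumor-free replicate 3. For Itgav they were -0.042 with array weights and -0.19 without tumor-free replicate 2. With 1 array left out in turn these 3 ranged from -0.045 to 0.11, -0.10 to 0.14 and -0.19 to 0.57. Arrays with the same replicate number did not deviate together over the probe sets tested (correlations of residuals from -0.069 to 0.078 over 18 pairs). Those with different numbers gave -0.10 to 0.071 over 36 pairs. With 3 arrays per group this cannot tell whether same-numbered arrays share mice or handling. With the replicate block 5 and 4 members were called between the cell types and 0 in the tumor contrasts, and of all probe sets 1 in osteoblasts, 2 in endothelial cells and 1 in the difference, against 8, 3 and 3 without it. Over the alternatives these 3 counts ranged from 0 to 57, 0 to 7 and 0 to 10, with 57 without replicate 3 of both osteoblast groups. The number of arrays and, for Ptprc, a signal near the filter limit what can be seen.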
